A study of Mus musculus with 4 samples.

Results

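Purines and pyrimidines are the bases of RNA and DNA, and a dividing cell must make or recover enough nucleotides to copy its genome once per cycle. Expression of 36 genes for this chemistry was read across 4 RNA-seq libraries of mouse neural progenitors, out of 21091 entries listed for each library. The genes were matched by symbol, from a list drawn up with earlier results of these data known, and all 36 were found. They fall into 4 parts: 2 genes make the activated ribose that every nucleotide carries, 16 belong to purine synthesis and recovery, 10 to pyrimidine synthesis and recovery, and 8 to the making of deoxynucleotides for DNA.

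As background, phosphoribosyl pyrophosphate (PRPP) is the activated ribose. The purine ring is built on PRPP atom by atom until inosine monophosphate (IMP) is reached, and IMP is then turned into adenosine or guanosine monophosphate (AMP or GMP). The pyrimidine ring is made before the ribose is attached, giving uridine monophosphate (UMP), from which the cytidine nucleotides follow. Ribonucleotide reductase removes an oxygen from the ribose to give deoxynucleotides, and thymidylate is then made from a deoxyuridine nucleotide. Salvage enzymes return free bases and nucleosides to the nucleotide pool. Synthesis from small molecules (de novo synthesis) is known to be used heavily by proliferating progenitors, whereas resting cells rely more on salvage.

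The neural progenitors came from the brains of C57BL/6 embryos at embryonic day 11 (E11) or 14 (E14) and were kept for 3 days in suspension culture with EGF and FGF before RNA was taken. At each stage a control (CTL) library and a *Stat3* conditional knockout (*Stat3* cKO) library were sequenced, which gives 4 groups with 1 library each. In the *Stat3* cKO, Cre driven by the rat Nestin promoter and enhancer, which are active in neural progenitors, removes floxed exons that encode the SH2 domain of STAT3, a transcription factor activated by cytokines and growth factors. The sample labels name the control WT and the RNA-seq methods say wild-type, whereas the animal methods give Nestin-Cre embryos with 1 floxed and 1 normal *Stat3* allele as the control. If the CTL embryos had no Cre, the effect of Cre and that of the deletion cannot be told apart. How many embryos went into a library is not given. The comparisons implied by the design are *Stat3* cKO against CTL at each stage and E14 against E11 in each genotype. The study sought candidate STAT3 targets among the genes that rose with stage in CTL and not in *Stat3* cKO. It also checked differential genes against a database of potential STAT3 binding sites. Its annotation of the candidates was led by oxidative phosphorylation and listed purine and pyrimidine metabolism as lesser terms. The stage comparisons below use the same 4 libraries and are not independent of that annotation.

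Values are FPKM, fragments scaled to transcript length and to the mapped fragments of the library, so levels can be set beside each other between genes. With a lone library in each group there is no replicate error to compare a difference with, and no test was run. Ratios are plain ratios of FPKM. Analysis was limited to entries whose 4 values averaged 1 FPKM or more, which kept 12449 entries and 35 of the 36 nucleotide genes. *Adssl1* was under this level. Counts of changed genes use a ratio of 2-fold, a threshold of size and not a test. From the FPKM steps that single fragments leave, library sizes were estimated at 37.9 (E11 *Stat3* cKO) to 49.3 (E11 CTL) in units of 1e+06 fragments, an estimate that assumes GENCODE transcript lengths. The lowest of the 35 genes analysed, *Rrm2b* in E11 *Stat3* cKO, then rested on about 617 fragments. Coordinates are given as listed, because the build is not stated with the values.

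At E11 the targeted gene *Stat3* had 7.41 FPKM in CTL and 6.74 in cKO, and at E14 it had 27.6 in CTL and 9.55 in cKO. It was thus much lower in the cKO at E14 and close to CTL at E11. All 10 neural progenitor markers were above 0 in every library. They summed to 1500 and 1693 FPKM in the E11 libraries (CTL and cKO) and to 7335 and 7986 at E14, where *Fabp7* alone had 5245 and 5929. At E14, 8 of the 10 were higher in cKO and 2 lower, against 39.9% of all genes higher. The 7 mesenchymal markers summed to 1326 and 1171 FPKM in the E11 libraries (CTL and cKO) and to 15.9 and 10.4 at E14. The 4 astrocyte markers summed to 84.6 FPKM in CTL and 149 in cKO at E14, against 10.6 and 8.60 at E11, with *Aldh1l1* at 78.6 and 136 FPKM making up most of the E14 sums. *Gfap*, of the same list, was under 1 FPKM in every library and lower in cKO at E14 (0.901 and 0.186 FPKM). The 4 oligodendrocyte markers summed to 43.6 and 79.9 FPKM at E14 and 59.9 and 76.0 at E11. The 10 neuron markers summed to 803, 835, 1261 and 1040 FPKM in the same order as *Stat3* above. In that order the erythroid sums were 22.8, 3.31, 2.02 and 1.02 FPKM over the 3 of 5 markers listed, the microglial sums 8.26, 4.91, 0.584 and 0.722, with 1 marker at 0 in E14 CTL, and the endothelial sums 4.43, 4.67, 1.04 and 1.61. Erythroid and microglial markers were thus highest in E11 CTL, and their part in the E11 ratios was not tested. The Y-linked *Ddx3y* was listed at 0 in both E11 libraries and had 0.0569 FPKM in E14 CTL, against 25.1 in E14 cKO. The X-linked *Xist*, which silences an X chromosome in female cells, had 46.9, 39.7, 13.6 and 0.037 FPKM, in the order of *Stat3*. Both set E14 *Stat3* cKO apart from E14 CTL. *Rn45s*, the ribosomal RNA precursor, set E11 CTL apart: it was listed at 0 there and had 7780.0 FPKM in E11 cKO, 4154 in E14 CTL and 5674 in E14 cKO, or 0.965%, 0.298% and 0.388% of the summed FPKM. E11 CTL is the baseline of the E11 genotype ratios and of the stage ratios in CTL, and the part of *Rn45s* in them was not tested. A factor shared by all genes of a library cancels in the rescaled ratios given beside the results. *Fabp7*, *Gfap*, *Aldh1l1*, *Ddx3y*, *Xist* and *Rn45s* were chosen after their values were seen.

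The promoters of these genes were searched for 4 short motifs in the RefSeq start-site table (assembly GRCm38.p6), which gives 250 bases before and 50 after each start. It held 47 promoters of 33 of the 36 genes. *Pfas*, *Rrm2b* and *Dhodh* were not in it. Both strands were searched for the E2F motifs TTCGCGC and TTGGCGC, the MYC-type E-box CACGTG, the STAT motif TTCNNNGAA and the CCAAT box. The 4 promoters below are shown from base -250 to base -1, 5′ to 3′ on the gene's strand, with motif matches in capitals. *Atic* and *Dtymk* are shown because each holds an E2F motif, an E-box and a CCAAT box, *Adss* for a pair of E2F motifs, and *Adsl* for a STAT motif. They lie at chr1:71556906-71557155 (plus strand), chr1:93801935-93802184 (minus), chr1:177796510-177796759 (minus) and chr15:80948240-80948489 (plus).
Atic: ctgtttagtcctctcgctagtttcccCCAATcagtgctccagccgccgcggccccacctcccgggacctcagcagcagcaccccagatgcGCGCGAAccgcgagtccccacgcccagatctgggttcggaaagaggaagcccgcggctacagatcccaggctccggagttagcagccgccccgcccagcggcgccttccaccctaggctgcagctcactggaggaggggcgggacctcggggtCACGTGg
Dtymk: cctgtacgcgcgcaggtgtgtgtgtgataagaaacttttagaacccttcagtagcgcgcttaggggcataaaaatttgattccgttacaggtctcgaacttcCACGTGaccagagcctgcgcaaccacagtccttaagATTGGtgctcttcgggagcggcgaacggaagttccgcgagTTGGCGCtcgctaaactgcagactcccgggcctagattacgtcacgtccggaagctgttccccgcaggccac
Adss: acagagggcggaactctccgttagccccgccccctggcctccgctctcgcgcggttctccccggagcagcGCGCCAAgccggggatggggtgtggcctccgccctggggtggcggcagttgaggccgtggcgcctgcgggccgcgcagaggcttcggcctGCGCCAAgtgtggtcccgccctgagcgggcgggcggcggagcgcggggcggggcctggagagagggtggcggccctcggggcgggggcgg
Adsl: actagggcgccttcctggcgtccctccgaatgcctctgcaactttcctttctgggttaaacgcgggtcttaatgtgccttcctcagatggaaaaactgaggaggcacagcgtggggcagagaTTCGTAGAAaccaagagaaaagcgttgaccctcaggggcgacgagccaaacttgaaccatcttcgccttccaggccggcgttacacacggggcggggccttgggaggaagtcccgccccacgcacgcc
In *Atic*, the E2F match lay at -160 to -154, the E-box at -7 to -2 and the CCAAT box at -224 to -220. In *Dtymk*, the E2F match lay at -72 to -66, the E-box at -148 to -143 and the CCAAT box at -112 to -108. The *Adss* matches lay at -180 to -174 and at -90 to -84, and the STAT match of *Adsl*, TTCGTAGAA, at -128 to -120.

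Over the nucleotide genes, E2F motifs were present in 5 of 47 promoters (10.6%) and in 3.89% of all 32851 promoters in the table, and the E-box in 8 of 47 (17.0%) against 7.15%. The E2F matches were in *Adss*, *Atic*, *Ctps*, *Dtymk* and *Impdh2*, and the E-boxes in *Ak4*, *Atic*, *Dtymk*, *Impdh2*, *Nme1*, *Paics* and *Tyms*. The STAT motif was found in 2 of 47 promoters (4.26%), those of *Adsl* and *Paics*, against 8.3% of all promoters. CCAAT was present in 14 of 47 (29.8%) against 37.4%. In *Impdh2* the CCAAT and E2F matches overlap on opposite strands. These matches describe the letters in these windows and say nothing of whether a factor binds there.

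Across the 4 libraries the nucleotide genes were expressed above the typical gene. Over all 36 the median was 21.0 FPKM in CTL and 21.6 in cKO at E11, and 51.5 in CTL and 32.1 in cKO at E14, whereas the median of all genes analysed stayed between 11.2 and 12.1. The E14 CTL library stood highest for 33 of the 35 genes, against 39.3% of all genes analysed. The exceptions were *Cad*, highest in E11 *Stat3* cKO, and *Ak1*, highest in E14 *Stat3* cKO by a small margin. This count is for the deposited scale. With upper-quartile scaling E14 CTL was also not the highest library for *Pfas*, *Impdh1*, *Gmps*, *Ctps2*, *Uck1*, *Uck2*, *Rrm2b* and *Dck*. The share of all genes was not computed at that scaling. The lowest value was in E11 CTL for 22 genes, in E14 *Stat3* cKO for 7 and in E11 *Stat3* cKO for 6. The shares of all genes lowest in each library were not computed, so whether these counts differ from them is not known. Summed over all 36 genes, FPKM came to 1460, 1695, 3209 and 2333 in E11 CTL, E11 cKO, E14 CTL and E14 cKO.

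**Figure D1:**
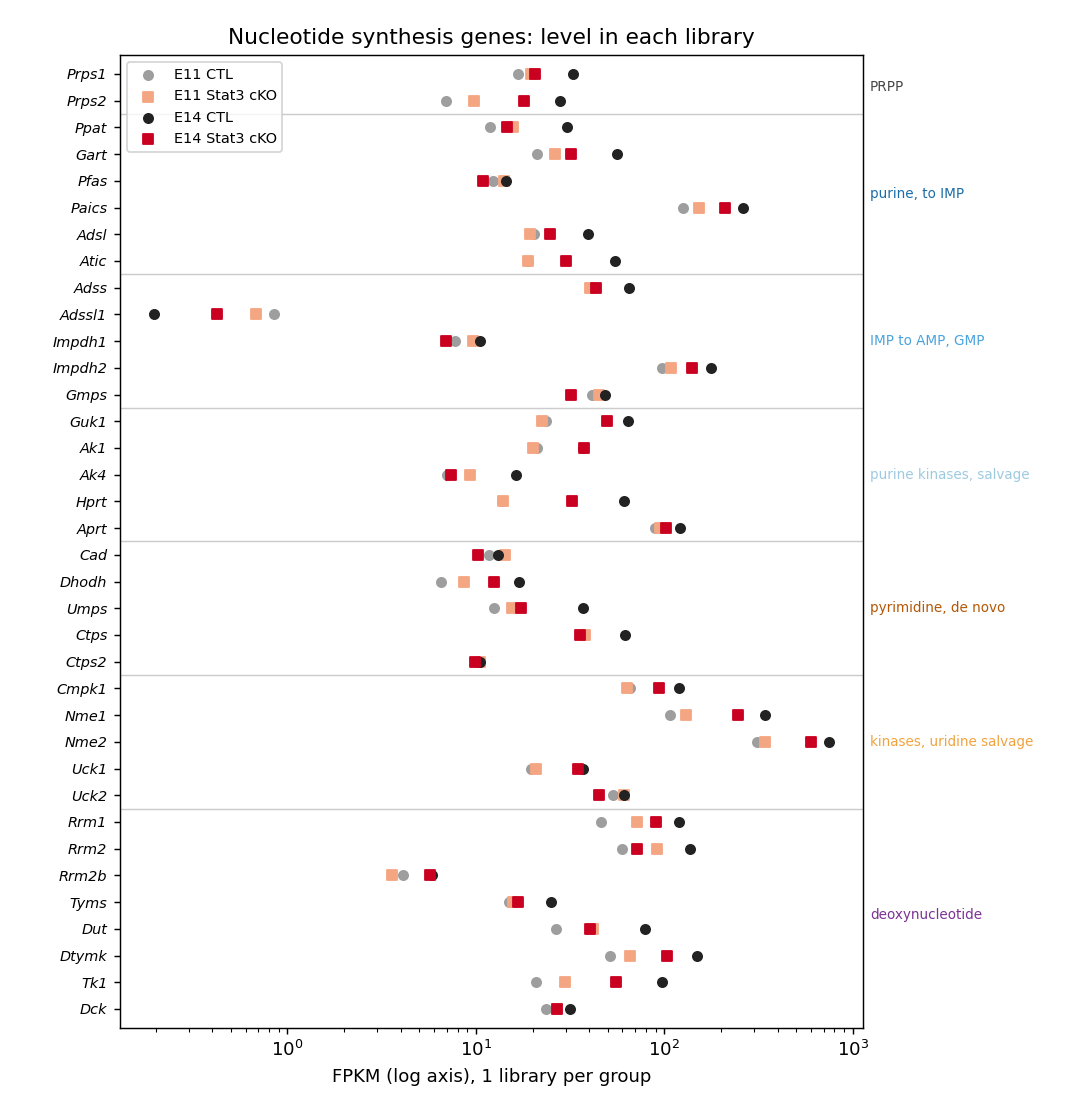
FPKM (log axis) of the 36 nucleotide genes in the 4 libraries, 1 point per library, grouped by step; circles are CTL and squares *Stat3* cKO, with E11 in light and E14 in dark colours. On the deposited scale shown, the dark circle (E14 CTL) is the rightmost point in 33 of the 35 rows analysed, fewer with upper-quartile scaling. *Nme2* (309 to 748 FPKM) and *Adssl1* (0.196 to 0.854 FPKM) mark the ends of the range.

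The activated ribose comes from PRPP synthetases, of which *Prps1* and *Prps2* (both X-linked) encode the widely expressed isoforms. *Prps1* had 16.7 FPKM in CTL and 19.7 in cKO at E11, and 32.9 in CTL and 20.7 in cKO at E14. *Prps2* had 6.91, 9.81, 27.9 and 18.1 FPKM in the same order of libraries (E11 CTL, E11 cKO, E14 CTL, E14 cKO), which is kept for every list of 4 values below. E14 CTL was the highest library for both genes and E11 CTL the lowest. At E14 the cKO level was 0.63 times CTL for *Prps1* and 0.648 times for *Prps2*. At E11 the cKO was higher, 1.18 and 1.42 times CTL. The stage ratio of *Prps2* was 4.04 in CTL and 1.84 in cKO, and that of *Prps1* 1.97 in CTL and 1.05 in cKO.

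The route from PRPP to IMP is carried by 6 enzymes. *Ppat* encodes the amidophosphoribosyltransferase that commits PRPP to purines and is the point of feedback control. It had 11.9, 15.7, 30.6 and 14.6 FPKM. E14 CTL stood well apart, and the E14 cKO level was between those of the E11 libraries. *Ppat* was 0.476 times CTL at E14 (log2 ratio -1.07) and 1.32 times at E11, and is listed on chromosome 5 from 77342273 to 77396531.

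*Gart*, a trifunctional enzyme of the next steps, had 21.2, 26.3, 56.5 and 31.8 FPKM. *Pfas*, which adds a nitrogen from glutamine, had 12.4, 14.2, 14.4 and 10.9 FPKM. *Gart* thus resembled *Ppat*, at 0.564 times CTL at E14, while *Pfas* varied little over the 4 libraries and was 0.752 times CTL at E14. *Paics*, which carries out the following carboxylation and succinocarboxamide steps, was the most abundant of the 6 genes at 126, 153, 260 and 211 FPKM. Its E14 cKO level was 0.81 times CTL, the nearest to CTL of the 6.

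*Adsl*, adenylosuccinate lyase, acts on the way to IMP and again on the way to AMP. It had 20.3, 19.3, 39.3 and 24.8 FPKM. *Atic*, whose product closes the ring, had 19.0, 19.0, 54.7 and 30.1 FPKM. For both genes the E11 libraries were nearly equal, and the E14 libraries separated at 0.63 and 0.55 times CTL. All 6 genes of this route were lower in E14 *Stat3* cKO than in E14 CTL, against 60.1% of all genes, with a median log2 ratio of -0.75. At E11, 5 of 6 were higher in cKO, against 61.8% of all genes, with a median of 0.24. *Adsl* was at 0.953 times CTL, and *Atic* also came below 1 with the all-gene median set to 0.

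*Ppat* and *Paics* are head-to-head neighbours, listed over the same interval. In the RefSeq table their starts, 76951578 on the minus strand and 76951302 on the plus strand, place 277 bases of each gene opposite the other. Whether counting used strand is not given, so reads from these 277 bases cannot be told apart. *Paics* was by far the more abundant of the pair in every library, and its E14 ratio of cKO to CTL was 0.81 where that of *Ppat* was 0.476.

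From IMP, *Adss* leads to AMP, and *Impdh1*, *Impdh2* and *Gmps* lead to GMP. *Adss*, adenylosuccinate synthetase, had 40.6, 40.4, 64.9 and 43.7 FPKM. *Gmps*, GMP synthetase, had 41.4, 45.1, 48.3 and 32.0 FPKM. The E14 cKO level of *Adss* was near both E11 levels, and that of *Gmps* was under all other libraries. Both were close to 0.67 times CTL at E14 (0.673 and 0.661).

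IMP dehydrogenase, the rate-limiting enzyme on the way to GMP, is encoded by a pair of genes, and *Impdh2* carried most of the transcript. *Impdh2* had 97.8, 109, 177 and 141 FPKM and *Impdh1* 7.71, 9.72, 10.6 and 6.92 FPKM. *Impdh1* was 0.656 times CTL at E14 and 1.26 times at E11, and *Impdh2* 0.797 and 1.12 times. *Adssl1*, the muscle-type adenylosuccinate synthetase, was barely expressed at 0.854, 0.678, 0.196 and 0.422 FPKM, which corresponds to about 76.5, 46.7, 14.7 and 33.6 fragments. It is the only gene of the 36 whose lowest library was E14 CTL, and it enters the medians and sums of FPKM but no count or median of ratios at the level of 1 FPKM used here.

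The purine kinases and salvage enzymes did not move as a block. *Hprt* (X-linked), the salvage enzyme for hypoxanthine and guanine, had 13.7, 13.9, 61.4 and 32.2 FPKM. *Aprt*, its counterpart for adenine, had 89.7, 94.5, 121 and 103 FPKM. *Hprt* was 0.525 times CTL at E14 and *Aprt* 0.846 times, and both were close to CTL at E11 (1.02 and 1.05 times).

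*Guk1*, guanylate kinase, had 23.6, 22.5, 64.0 and 50.0 FPKM. *Ak1*, the cytosolic adenylate kinase, had 21.1, 20.2, 37.1 and 37.3 FPKM. Both genes separated by stage far more than by genotype, and the *Ak1* values of the E14 libraries were nearly equal. *Ak4*, a mitochondrial nucleoside monophosphate kinase, had 7.05, 9.36, 16.4 and 7.42 FPKM. It was the gene with the lowest E14 ratio of the 35, 0.454 times CTL (log2 ratio -1.14), and is listed on chromosome 4 from 101091893 to 101140376. Over these 5 genes the median log2 genotype ratio was -0.36 at E14 and 0.023 at E11.

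The pyrimidine ring is started by *Cad*, a single large protein that carries the first steps of the route. *Cad* had 11.7, 14.2, 13.1 and 10.2 FPKM. *Dhodh*, the dihydroorotate dehydrogenase of the inner mitochondrial membrane, had 6.57, 8.64, 16.9 and 12.5 FPKM. *Umps*, which attaches PRPP and completes UMP, had 12.5, 15.7, 37.2 and 17.4 FPKM. The 3 genes differed in pattern: *Cad* varied little over the libraries, *Dhodh* was higher in both E14 libraries than at E11, and *Umps* was high in E14 CTL alone. *Umps* was 0.467 times CTL at E14 (log2 ratio -1.10) and 1.25 times at E11, and is listed on chromosome 16 from 33955097 to 33967089. *Dhodh* was 0.736 times CTL at E14 and *Cad* 0.782 times.

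CTP synthase turns uridine into cytidine nucleotides. *Ctps*, the major isoform here, had 37.6, 37.8, 61.7 and 35.7 FPKM, whereas *Ctps2* (X-linked) had 9.88, 10.5, 10.6 and 9.84 FPKM. Only *Ctps* had a raised E14 CTL value, and it was 0.578 times CTL at E14. *Ctps2* was 0.93 times CTL and came slightly above 1 with upper-quartile scaling. All 5 genes of pyrimidine de novo synthesis were lower in E14 *Stat3* cKO (median log2 ratio -0.44) and higher in E11 *Stat3* cKO (median 0.28) on the deposited scale, a combination seen in 38.7% of all genes, with *Ctps* slightly below 1 at E11 under either rescaling.

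*Nme1* and *Nme2*, nucleoside diphosphate kinases that make triphosphates of all bases, were among the most abundant genes of the set. *Nme2*, the highest in every library, had 309, 343, 748 and 602 FPKM, and *Nme1* 108, 130, 342 and 246 FPKM. Both were higher at E14 than at E11 in each genotype, and their E14 cKO values were 0.805 and 0.719 times CTL. The coding sequences of this pair are much alike, and how reads shared between them were assigned is not given, so the split between them is uncertain. The same holds for *Prps1* and *Prps2*.

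*Cmpk1*, which phosphorylates UMP and CMP, had 65.5, 63.3, 120 and 93.9 FPKM. *Uck2*, the uridine-cytidine kinase of higher activity, had 53.7, 61.0, 61.4 and 44.9 FPKM. *Uck1*, its partner, had 19.7, 20.8, 37.1 and 34.8 FPKM. *Uck2* was lowest in E14 cKO at 0.731 times CTL, whereas *Uck1* was higher at E14 in both genotypes and 0.938 times CTL.

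Ribonucleotide reductase consists of a large subunit, *Rrm1*, and a small subunit, either the S-phase form *Rrm2* or the p53-inducible form *Rrm2b*. *Rrm1* had 46.4, 72.0, 119 and 90.7 FPKM. *Rrm2* had 59.9, 91.7, 137 and 71.4 FPKM, and *Rrm2b* 4.09, 3.57, 5.86 and 5.71 FPKM. *Rrm1* and *Rrm2* were higher in cKO than in CTL at E11 and lower at E14, while *Rrm2b* stayed low in every library. At E11 the cKO level was 1.55 times CTL for *Rrm1* and 1.53 times for *Rrm2*, and at E14 it was 0.761 and 0.522 times. *Rrm2b* was 0.873 times CTL at E11 and 0.974 at E14.

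*Dut*, the dUTPase that keeps uracil out of DNA and supplies dUMP, had 26.7, 41.7, 78.9 and 40.4 FPKM. The E11 and E14 cKO libraries were nearly equal, and the CTL libraries lay on either side of them. *Dut* was 1.56 times CTL at E11 and 0.512 times at E14, and is listed on chromosome 2 from 125072983 to 125084785. *Tyms*, thymidylate synthase, had 15, 15.7, 25.1 and 16.8 FPKM and was thus raised in E14 CTL alone, with 0.67 times CTL in the E14 cKO.

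*Tk1*, the S-phase thymidine kinase, had 20.9, 29.9, 97.0 and 55.5 FPKM. *Dtymk*, thymidylate kinase, had 51.6, 65.9, 149 and 104 FPKM. *Dck*, deoxycytidine kinase, had 23.4, 27.0, 31.5 and 27.0 FPKM. These 3 genes shared the order E11 CTL, E11 cKO, E14 cKO, E14 CTL from low to high. *Dck* varied least of the 3, with its cKO libraries nearly equal. At E14 the cKO level was 0.572 times CTL for *Tk1*, 0.697 for *Dtymk* and 0.855 for *Dck*. All 8 deoxynucleotide genes were below CTL in E14 *Stat3* cKO (median log2 ratio -0.55), against 60.1% of all genes. With either rescaling 7 of 8 were, against 50% (all-gene median set to 0) and 40.2% (upper quartile), and *Rrm2b* came above 1. At E11, 7 of 8 were above CTL (median 0.43), against 61.8% of all genes, and 6 of 8 with upper-quartile scaling, against 48.1%. Of these genes, *Rrm1*, *Rrm2* and *Dut* were the only 3 nucleotide genes to reach 1.5-fold at E11, a size that 2.18% of all genes reached in that direction. With either rescaling none of the 35 reached it.

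Taking the 35 genes as a set, 34 were lower in E14 *Stat3* cKO than in E14 CTL, whereas 60.1% of all genes were. The median log2 ratio was -0.52 over the set and -0.079 over all genes. *Ppat*, *Umps* and *Ak4* were at least 2-fold lower, against 1.69% of all genes, and 15 were at least 1.5-fold lower, against 7.67%. None was 3-fold lower, against 0.418%, and none 2-fold higher, against 1.85%. *Dut*, *Rrm2* and *Hprt* lay just short of 2-fold. The count below CTL was 33 of 35 when the all-gene median was set to 0 (50% of all genes by construction) and 31 of 35 with upper-quartile scaling (40.2% of all genes), where *Ctps2*, *Uck1* and *Rrm2b* joined *Ak1* above 1. Upper-quartile scaling moved the all-gene median from -0.079 to 0.074, the median of the set to -0.37, and the number at least 2-fold lower to 0 (1.1% of all genes). Over all genes the 2-fold split at E14 was 230 higher and 210 lower as deposited, and 343 and 137 with upper-quartile scaling.

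At E11 the same genes leaned the other way and by less. Of the 35, 29 were higher in *Stat3* cKO, against 61.8% of all genes, and the median log2 ratio was 0.20 against 0.059. None reached 2-fold in either direction, as 0.209% of all genes did upward and 1.12% downward. The 6 genes below CTL were *Adsl*, *Adss*, *Guk1*, *Ak1*, *Cmpk1* and *Rrm2b*. With upper-quartile scaling 25 of 35 were above 1, against 48.1% of all genes, and *Atic*, *Hprt*, *Ctps* and *Tyms* came below. The median was then 0.13 against -0.010. The E11 and E14 comparisons share no library, and 29 of 35 genes were above CTL at E11 and below it at E14, a combination seen in 38.7% of all genes. *Rrm2* and *Dut* did so by at least 1.5-fold on each side, as did 0.322% of all genes, and neither reached it at E11 with either rescaling. The E14 log2 ratio minus the E11 log2 ratio had a median of -0.72 over the set and -0.12 over all genes, and was below 0 for 33 of 35 genes against 62.1%. With 1 library per group this difference has no error and was not tested.

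**Figure D2:**
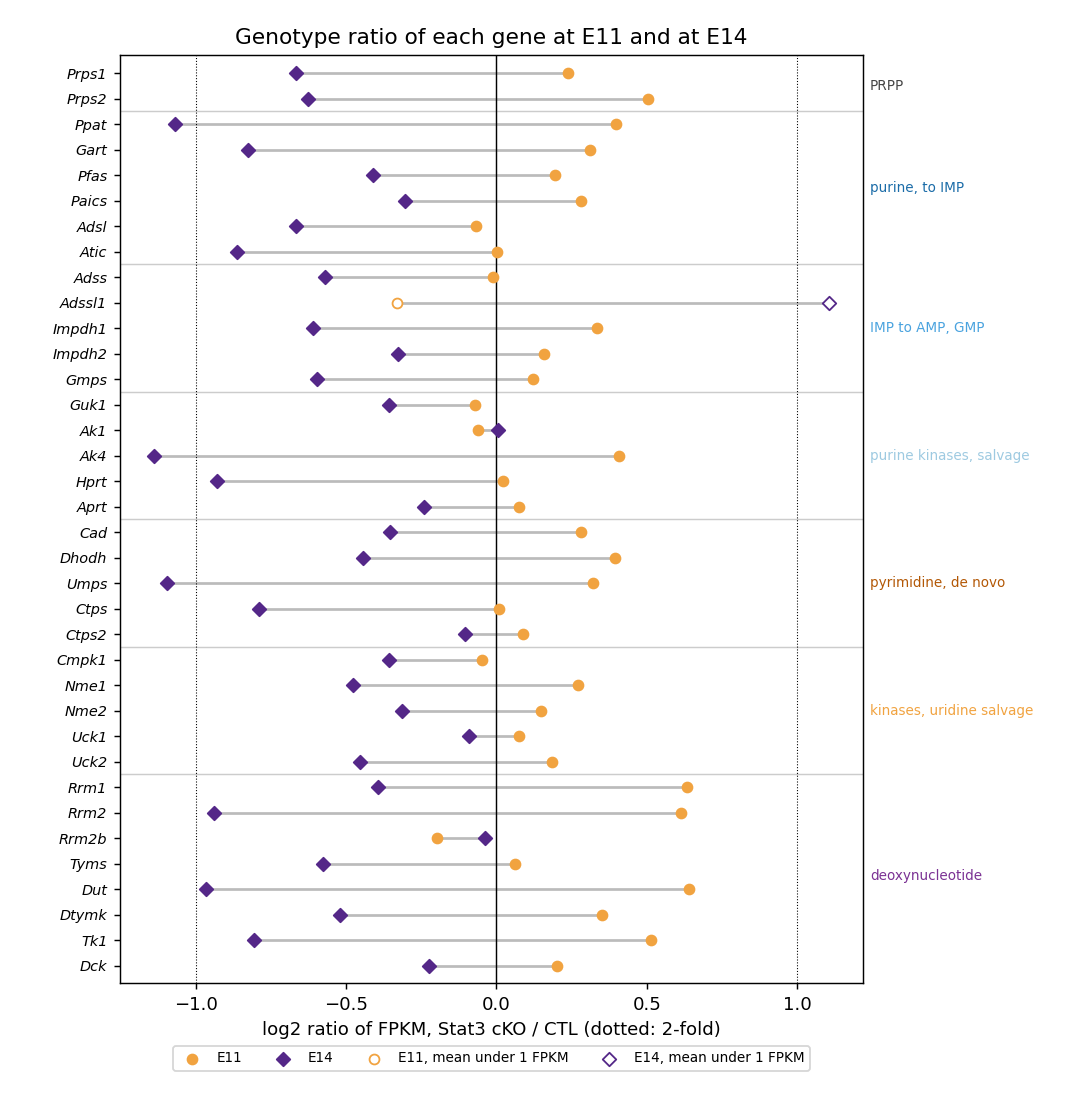
Log2 ratio of FPKM, *Stat3* cKO over CTL, of each nucleotide gene at E11 (circles) and E14 (diamonds), with a grey line joining the ratios of a gene; open symbols mark *Adssl1*, whose mean is under 1 FPKM, and dotted lines mark 2-fold. On the deposited scale 29 of 35 genes have the circle right of 0 and the diamond left of it (with upper-quartile scaling 4 circles and 3 diamonds cross 0), and *Ppat*, *Ak4* and *Umps* pass the left dotted line.

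**Figure D3:**
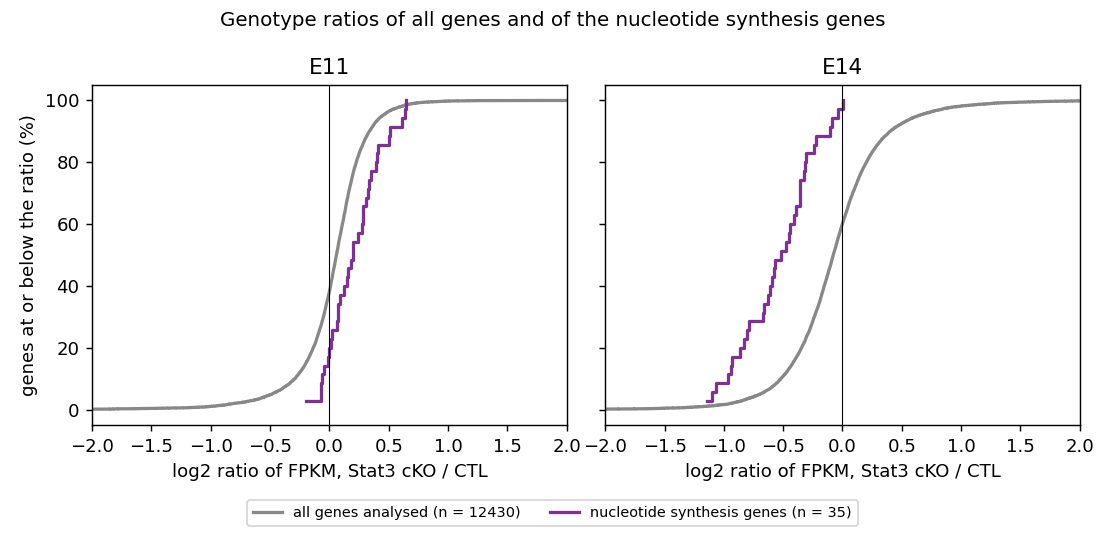
Cumulative share (%) of genes at or below each log2 genotype ratio (cKO over CTL) at E11 (left) and E14 (right), for the 35 nucleotide genes and for the 12430 genes with a ratio. The curve of the nucleotide genes is to the right of all genes at E11, with medians of 0.20 and 0.059, and to the left at E14, with medians of -0.52 and -0.079.

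By step, the E14 median log2 ratio of cKO to CTL ran from -0.36 for the kinases and salvage genes of both bases to -0.75 for the route to IMP, with -0.65 for PRPP synthesis, -0.58 for the branch to AMP and GMP, -0.55 for deoxynucleotides and -0.44 for pyrimidine de novo synthesis. Over all 15 purine genes the median was -0.60, and over all 10 pyrimidine genes -0.40. The E11 medians were 0.43 for deoxynucleotides, 0.37 for PRPP, 0.28 for pyrimidine de novo synthesis, 0.24 for the route to IMP, 0.15 for the pyrimidine kinases, 0.14 for the branch to AMP and GMP, and 0.023 for the purine kinases and salvage genes, the last of which came below 0 with either rescaling. Summed FPKM in E14 cKO was 0.614 times CTL for pyrimidine de novo synthesis, 0.638 for PRPP, 0.639 for deoxynucleotides, 0.708 for the route to IMP and between 0.744 and 0.78 for the other 3 steps.

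From E11 to E14 in CTL, all 35 genes were higher at the later stage, against 60.5% of all genes. The median log2 ratio was 0.98 against 0.21 for all genes, and 17 genes were at least 2-fold higher against 14.6%. At 1.5-fold the count was 26 against 30.3%, and at 3-fold 4 against 4.99%. *Tk1* (4.64-fold), *Hprt* (4.47-fold) and *Prps2* (4.04-fold) had the highest stage ratios, and *Nme1* followed at 3.18-fold. Upper-quartile scaling moved the all-gene median from 0.21 to -0.16, and 30 of 35 genes were then higher at E14 (41.6% of all genes), with 10 at least 2-fold (7.21%). *Pfas*, *Gmps*, *Cad*, *Ctps2* and *Uck2*, whose stage ratios were between 1.07 and 1.17, came below 1. Over all genes the 2-fold split was 1820 higher and 1548 lower as deposited and 896 and 2237 with upper-quartile scaling.

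In *Stat3* cKO the stage difference was smaller. Of the 35 genes, 24 were higher at E14 against 53.3% of all genes, and 19 of 35 against 44.6% with upper-quartile scaling. The median log2 ratio as deposited was 0.27 against 0.058. *Guk1* (2.23-fold) and *Hprt* (2.31-fold) were at least 2-fold higher, against 10.1% of all genes, 11 genes were at least 1.5-fold higher, against 21.6%, and none 3-fold, against 4.71%. The 2 stage comparisons share no library, but they use the same 4 libraries as the genotype comparisons. For each gene, the stage log2 ratio in CTL minus that in cKO is the E14 minus E11 genotype difference above with its sign reversed. It is therefore the same result and not a further one. E14 CTL also enters both the E14 genotype ratios and the CTL stage ratios, so a value particular to that library moves both. 15 genes were at least 2-fold higher in CTL and under 2-fold in cKO, a combination seen in 7.15% of all genes, and 0 showed the reverse, against 2.63% of all genes. The count was 12 against 3.82% with the all-gene median set to 0, and 8 against 2.41% with upper-quartile scaling. As deposited, *Ppat*, *Ak4*, *Rrm2* and *Dut* were more than 2-fold higher in CTL (log2 ratios of 0.99, 0.84, 0.82 and 1.19 with upper-quartile scaling) and at 0.93, 0.793, 0.778 and 0.97 times their E11 level in cKO. *Ak1* and *Rrm2b* were the exceptions with the larger stage ratio in cKO. The mesenchymal markers given above were at least 2-fold lower at E14 in both genotypes for 7 of 7 genes, against 12.5% of all genes in CTL and 11.7% in cKO. Whether the E11 libraries held more cells of another type, with a share of RNA that lowers other genes, was not tested, and fewer cells of a type and less RNA per cell cannot be told apart in such bulk samples.

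**Figure D4:**
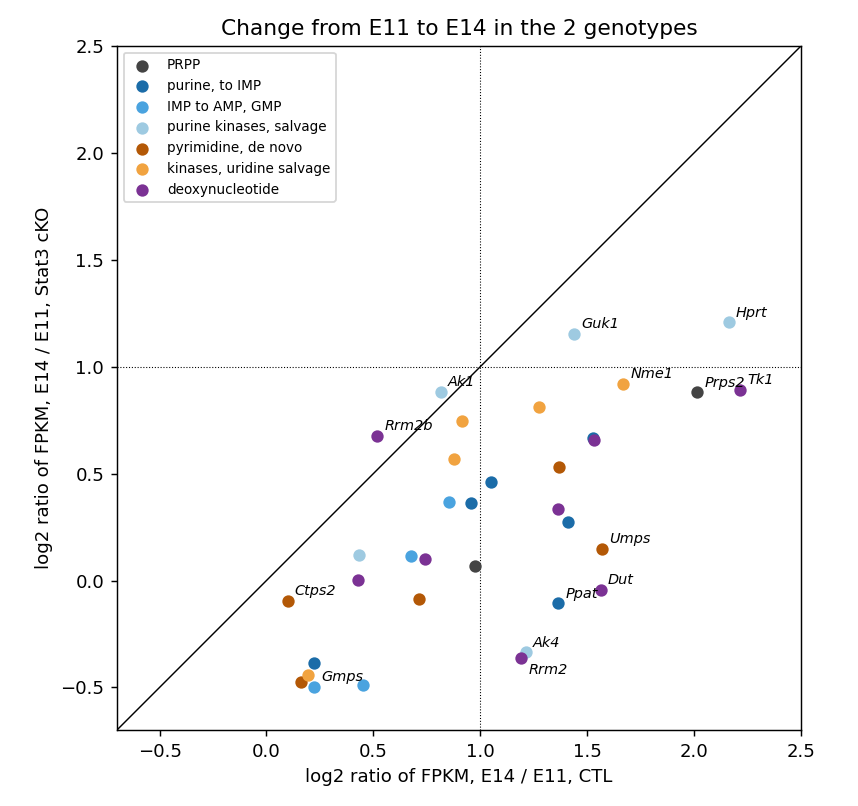
Log2 ratio of FPKM, E14 over E11, in CTL (x axis) and in *Stat3* cKO (y axis) for the 35 nucleotide genes, coloured by step; the diagonal marks equal change and dotted lines mark 2-fold. All points are right of 0 as deposited (5 cross 0 with upper-quartile scaling), 33 of 35 lie under the diagonal, and *Ak1* and *Rrm2b* lie above it.

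Several steps are encoded by a pair of genes, and in 4 of 8 pairs the E14 difference between genotypes was mostly in 1 partner. In CTP synthase, *Ctps* was 0.578 times CTL and *Ctps2* 0.93 times, so the share of *Ctps* in the pair's FPKM was 85.4% in E14 CTL and 78.4% in E14 cKO, against 79.2% and 78.3% at E11. In the small subunit of ribonucleotide reductase, *Rrm2* made up 93.6% of the pair in E11 CTL, 96.3% in E11 cKO, 95.9% in E14 CTL and 92.6% in E14 cKO. In the adenylate kinase pair, *Ak1* held 75.0%, 68.4%, 69.4% and 83.4%, with the highest share in the E14 cKO library, in which *Ak4* was low. In the uridine-cytidine kinases, *Uck1* held 26.8%, 25.4%, 37.7% and 43.7%. In these 4 pairs, the partner nearer to CTL at E14 had a ratio of at least 0.93.

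In 3 of the other 4 pairs the partners had closer E14 ratios. *Prps1* held 70.8% and 66.8% of its pair at E11 and 54.1% and 53.4% at E14, so the share differed by stage and little by genotype. *Impdh1* held from 4.69% to 8.17% of IMP dehydrogenase transcript and *Adss* at least 97.9% of adenylosuccinate synthetase transcript in every library. In the latter pair the E14 ratios lay on opposite sides of 1 (0.673 for *Adss* and 2.15 for *Adssl1*), the second from about 14.7 and 33.6 fragments. *Nme1* held 25.8%, 27.5%, 31.4% and 29.0% of its pair. All pairs were set out by enzyme name and without regard to sequence identity.

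**Figure D5:**
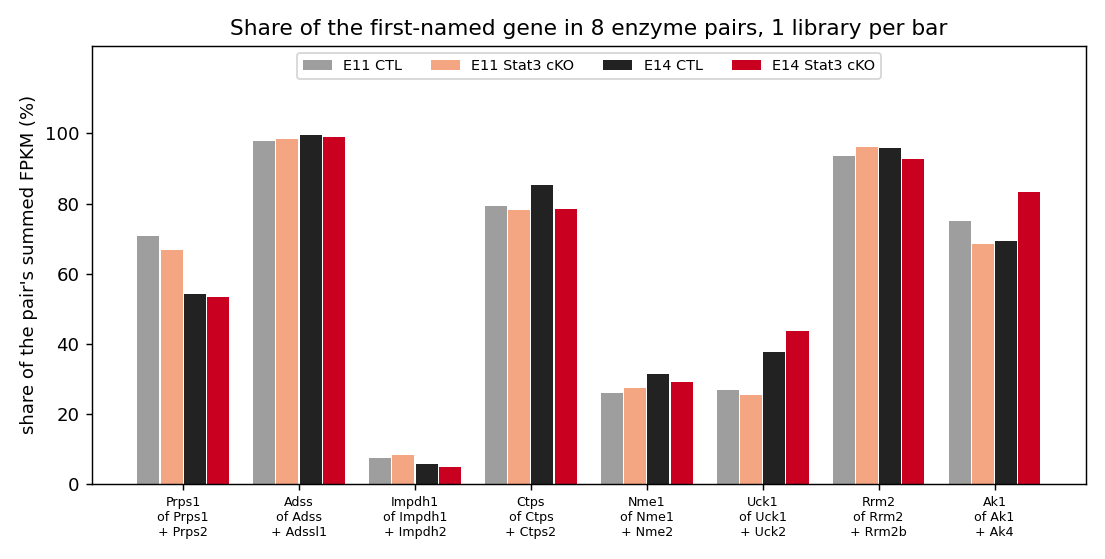
Share (%) of the first-named gene in the summed FPKM of 8 enzyme pairs, with 1 bar per library. *Ctps* is highest in E14 CTL (85.4%), *Ak1* is highest in E14 *Stat3* cKO (83.4%), and the *Prps1* share differs by stage (70.8% and 66.8% at E11, 54.1% and 53.4% at E14).

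Genes outside the set were read for context. Of 41 further genes of nucleotide metabolism, such as further kinases, nucleotidases and catabolic enzymes, 39 were listed and 30 analysed. Their median log2 genotype ratio (cKO over CTL) was -0.29 at E14, with 23 below CTL (60.1% of all genes were), and 0.11 at E11, with 19 above (61.8% of all genes), a share near that of all genes. With upper-quartile scaling the E14 median was -0.13, with 17 of 30 below, against 0.074 and 40.2% for all genes. *Dpyd*, which breaks down uracil and thymine, had 2.75, 2.23, 0.875 and 1.28 FPKM and was the highest of these genes at E14 (1.46 times CTL) and the lowest at E11 (0.813 times).

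Transcription factors known to act on nucleotide genes were mostly low. *Myc* had 1.37, 0.990, 5.85 and 3.35 FPKM, and was 0.573 times CTL at E14 and 0.723 times at E11. *Mycn*, the more abundant of the MYC pair, had 24.3, 23.8, 18.3 and 17.9 FPKM and was nearly equal in the genotypes at each stage. *E2f1* had 7.19, 9.0, 5.21 and 2.82 FPKM, *E2f2* 2.81, 5.11, 4.22 and 2.94, and *E2f3* 8.01, 10.2, 9.91 and 7.43. All 3 E2F genes were higher in cKO at E11 and lower in cKO at E14, as were 38.7% of all genes.

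A list of 18 proliferation genes was read beside the nucleotide genes. At E11 all 18 were above CTL, against 61.8% of all genes, with a median log2 genotype ratio of 0.55. At E14, 16 of 18 were below CTL, against 60.1% of all genes, and 14 of 18 with either rescaling, against 50% and 40.2%. The E14 values formed 2 groups, named here after they were seen. The 9 replication and G1/S genes (*Pcna*, *Mcm2* to *Mcm7*, *Ccne1* and *Ccne2*) had log2 ratios from -1.56 to -0.71, and the other 9, mostly genes of G2 and mitosis, from -0.40 to 0.22, so the list's median of -0.55 lies between them. The stage medians of all 18 genes were 1.13 in CTL and 0.18 in cKO, against 0.21 and 0.058 for all genes. *Pcna*, the replication clamp, had 187, 249, 575 and 336 FPKM and was thus highest in E14 CTL. *Mki67*, a mark of cycling cells, had 17.2, 25.5, 21.6 and 25.1 FPKM and was higher in cKO at both stages, at 1.16 times CTL at E14. Whether the share of cells in S phase has a part in the nucleotide gene ratios was not tested.

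The E14 libraries also differ in sex-linked transcripts, and 4 of the nucleotide genes, *Prps1*, *Prps2*, *Hprt* and *Ctps2*, are X-linked. The median of their log2 genotype ratios at E14 was -0.65, that of the 31 autosomal genes -0.48, and that of all 438 X-linked genes with a ratio -0.088. Without the X-linked genes, 30 of 31 were lower in cKO at E14, against 60% of all genes not on the X, and 25 of 31 were higher at E11, against 61.8%. *Ppat*, *Umps* and *Ak4* were at least 2-fold lower at E14, against 1.68%, and none with upper-quartile scaling. Embryo sex and genotype cannot be told apart in the E14 libraries.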

How the data were processed

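RNA-seq of 4 libraries, 1 per group, was analysed from 1 FPKM value per gene and library. The authors checked reads with FastQC, estimated expression with the TopHat and Cufflinks pipeline and deposited the FPKM values. The submitters' processing notes list Bowtie 0.12.2 and the builds mm8 and mm9 without roles, and the annotation is not given in the sources used here. Values were used as deposited. Listed starts were within 1000 bases of the GRCm38 start for 4.4% of 19401 symbols.

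Entries averaging 1 FPKM or more over the libraries were kept (12449 of 21091), and plain ratios were formed without a pseudocount. A gene at 0 in either library had no ratio, which left 12430 genes (12426 between stages in cKO). Gene lists were described by counts and medians. The nucleotide genes, the other lists and the motifs were chosen with earlier results of these data known. By rule, every nucleotide gene was named, and of other lists *Stat3*, *Mki67*, *Pcna*, the MYC and E2F genes and the extreme genes of nucleotide metabolism, of which 1 is not reported here. Further genes named in the library checks and the account of proliferation genes were chosen after their values were seen. Alternatives were pseudocounts, 2 scalings, other minimum levels, other thresholds and leaving out X-linked genes. The steps were tested on simulated data. Python 3.11.15, numpy 2.4.6, pandas 2.3.3 and matplotlib 3.10.9 were used. Intervals and p-values were left out because no group had a replicate. The 140 entries that join several symbols hold none of the 36 genes.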

Additional observations from a re-analysis of the deposited data

Results flagged for a closer look

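The median genotype ratio of the nucleotide genes was below 1 at E14 and above 1 at E11, from 1 library in each group, and this difference was not tested. Of the 35 genes, 29 lay on these sides and 5 were below CTL at both stages, against 38.7% and 21.5% of all genes. With upper-quartile scaling the counts were 23 and 8, against 20.8% and 19.4%. The median log2 genotype ratio (cKO over CTL) at E14 minus that at E11 was -0.72 over the 35 genes. By step it was -1.02 for PRPP synthesis, -0.98 for the route to IMP, -0.73 for the branch from IMP to AMP and GMP, -0.38 for the purine kinases and salvage genes, -0.72 for pyrimidine de novo synthesis, -0.51 for the pyrimidine kinases and uridine salvage genes, and -0.98 for deoxynucleotides. For the purine kinases and salvage genes the E11 median was close to 0 and came below it with either rescaling. Among single genes, *Rrm2* (-1.55) and *Dut* (-1.61) were at least 1.5-fold apart from CTL on opposite sides at E11 and E14, as were 0.322% of all genes, and with either rescaling both were under 1.5-fold at E11. Over all genes the same difference of medians was -0.14. With 1 library per group, no check for a sample far from the others of its group could be made.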

How the results depend on the processing

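The medians of the 35 nucleotide genes kept their direction in all 4 comparisons under every alternative run. Pseudocounts of 0.1 and 1 and a minimum of 5 FPKM moved none of these medians by more than 0.1 on the log2 scale and no count by more than 1.5 times. With upper-quartile scaling the median log2 ratio was -0.37 for cKO to CTL at E14, 0.61 for E14 to E11 in CTL and 0.13 in cKO, and the median over genes of the CTL stage change minus the cKO stage change was 0.50, against 0.72 as deposited. With the all-gene median set to 0 the CTL stage median was 0.76 and the median of those per-gene differences 0.58. Upper-quartile scaling left 0 genes at least 2-fold lower at E14 (1.1% of all genes) and 10 at least 2-fold higher with stage in CTL (7.21%). A threshold of 1.5-fold gave 15 genes lower at E14 (7.67% of all genes), 3 higher at E11 (2.18%), and 26 (CTL, 30.3%) and 11 (cKO, 21.6%) higher with stage. A threshold of 3-fold gave 0 lower at E14 (0.418%), and 4 (CTL, 4.99%) and 0 (cKO, 4.71%) higher with stage. With no minimum level, *Adssl1* added 1 gene at least 2-fold higher in cKO at E14 and 1 at least 2-fold lower with stage in CTL. In both cases the share of the nucleotide genes was smaller than that of all genes at the same setting. Without the X-linked genes, an alternative chosen after seeing the data, 1 of 31 genes was at least 2-fold higher with stage in cKO. The share over all genes, X-linked ones included, was 10.1%. Of the values of steps and single genes under all alternatives, 692 moved by less than these limits and 144 by more. No paired analysis was possible because each group has 1 library and the labels give no replicate numbers. For the same reason no replicate could be left out, and how far another culture would differ is unknown.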
